A study of Mus musculus with 12 samples.

Results

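The 43 genes described here encode the machinery by which hepatocytes take up, activate, carry and oxidise fatty acids and turn the product into ketone bodies. They were selected by symbol from the 16728 genes of the expression table, with earlier results of these data known. A total of 40 passed the filter on low counts that left 12275 genes for testing; Abcd2, Acot1 and Acot3 did not, with at most 0.631 CPM (counts scaled to a fixed library total) in any library. RNA had been sequenced from primary hepatocytes isolated from the livers of C57BL/6 mice, in 12 libraries. The donor mice were either wild type (WT) or lacked Fxr (Fxr-/-, called KO below), and their cells had been kept in DMEM with serum and given AC or FAC, each at 100 µM, for 24 h. Each combination of genotype and agent was a group of 3 libraries; AC libraries carry the numbers 1 to 3 and FAC libraries 4 to 6, in both genotypes. The labels give AC and FAC only as abbreviations, and the series title names iron overload, and AC was taken here as the reference for FAC. Age, sex, the design of the Fxr allele and the number of animals behind a group are not stated in those sources. The p-values therefore measure only the spread between these libraries, which may be technical.

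Fatty acids enter hepatocytes with the help of CD36, are carried in the cytosol by FABP1, are activated to acyl-CoA by ACSL1 or are stored in droplets coated by PLIN2. Long chains cross into mitochondria through the carnitine shuttle, where a cycle of dehydrogenation, hydration, renewed dehydrogenation and thiolysis shortens them and passes electrons through the flavoprotein ETF to the respiratory chain. Very long chains start in peroxisomes, which have their own set of cycle enzymes. When acetyl-CoA is plentiful, as in fasting, liver mitochondria make ketone bodies from it. Many of these genes are known targets of PPARα, a nuclear receptor that binds with RXR to direct repeats. FXR, the bile acid receptor encoded by Nr1h4, is known to bind with RXR to inverted repeats of a similar half-site.

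Because both receptors read variants of the half-site AGGTCA, promoters are shown for 4 members that carry the results below: Cd36, Fabp1 and Acaa1b, with the largest differences between genotypes, and Acot2, the member called for a difference between the genotypes in its FAC effect. Each sequence covers the 250 bases before the start that RefSeq gives (build GRCm38.p6), 5′ to 3′ on the gene's strand, and capitals mark matches to the motifs searched. For Cd36 that start is an internal one, inside the gene's span given below, and for the other 3 the window adjoins the span. They lie at chr5:17835897-17836146 (minus strand), chr6:71199629-71199878 (plus strand), chr9:119157094-119157343 (minus strand) and chr12:83987611-83987860 (plus strand).
Cd36: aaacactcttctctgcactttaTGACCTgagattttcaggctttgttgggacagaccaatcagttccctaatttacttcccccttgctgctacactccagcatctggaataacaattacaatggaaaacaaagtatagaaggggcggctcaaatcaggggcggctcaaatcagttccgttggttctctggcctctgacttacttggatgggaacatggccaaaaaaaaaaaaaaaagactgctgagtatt
Fabp1: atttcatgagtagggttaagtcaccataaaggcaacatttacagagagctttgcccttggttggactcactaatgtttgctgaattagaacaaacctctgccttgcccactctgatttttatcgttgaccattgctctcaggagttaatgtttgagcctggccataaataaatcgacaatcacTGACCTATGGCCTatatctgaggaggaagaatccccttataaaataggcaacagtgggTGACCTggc
Acaa1b: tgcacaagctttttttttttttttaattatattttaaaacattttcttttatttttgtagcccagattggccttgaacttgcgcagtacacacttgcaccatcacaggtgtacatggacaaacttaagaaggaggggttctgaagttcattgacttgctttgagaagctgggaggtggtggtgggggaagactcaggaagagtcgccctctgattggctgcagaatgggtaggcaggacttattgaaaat
Acot2: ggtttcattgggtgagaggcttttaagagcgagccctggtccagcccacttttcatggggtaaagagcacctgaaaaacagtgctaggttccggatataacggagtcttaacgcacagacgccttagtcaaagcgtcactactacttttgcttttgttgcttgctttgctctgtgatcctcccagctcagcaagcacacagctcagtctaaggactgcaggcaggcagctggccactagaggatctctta

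The half-site AGGTCA, searched on both strands, occurred in 14% of all 32851 promoter windows of this length and in 9 of the 41 windows of the 37 members that had one. Those 9 belonged to Acadm, Acadvl, Acot12, Acot4, Cd36, Cpt1a, Echs1, Fabp1 and Plin2. The direct repeat AGGNCANAGGNCA was found in 0.338% of all windows and, among members, in that of Fabp1, from 67 to 55 bases before the start, where it overlaps the half-site at 67 to 62. The inverted repeat AGGNCANTGNCCT was found in 0.0852% of all windows and in no member window. The Acaa1b and Acot2 windows held none of the 3 motifs. A match describes the letters of the window and says nothing of binding.

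Depth was even, from 16464494 to 18335700 estimated reads per library. Nr1h4, the gene that encodes FXR, was at 13.0, 15.6 and 13.1 CPM in WT AC and 9.35, 6.97 and 7.45 CPM in KO AC libraries. It was 1.75-fold lower in KO (edgeR quasi-likelihood test, log2 fold change -0.81 ± 0.14, adjusted p = 5.35e-04). Under FAC it was between 6.95 and 7.69 CPM in WT and at 3.54, 4.45 and 4.89 CPM in KO libraries, 1.68-fold lower in KO (log2 fold change -0.75 ± 0.16, adjusted p = 0.00157). It was also 1.93-fold lower under FAC than under AC in WT (log2 fold change -0.95 ± 0.14, adjusted p = 6.30e-04) and 1.84-fold lower in KO (log2 fold change -0.88 ± 0.16, adjusted p = 0.00124). The WT FAC values thus overlapped those of KO AC. Reads remained in every KO library, and a count over the whole gene does not show which exons remain. No member lies on chromosome 10, which carries Nr1h4. Among the 40 tested members, 36 were above their group's mean in each of KO AC 1 and KO FAC 6, against 5 to 24 in the other KO libraries and 9 to 33 in the WT libraries. Markers of several cell types also moved with genotype. Under AC, 6 of 10 hepatocyte markers were called higher and 3 lower in KO, and 6 of 9 endothelial, 5 of 6 stellate and fibroblast and 3 of 5 macrophage markers were called lower, with 1 endothelial (Stab2) and 1 macrophage marker (Cd68) higher. Under FAC, 6 hepatocyte markers were called higher and 1 lower in KO. In that comparison 6 of 9 endothelial, 5 of 6 stellate and fibroblast and 3 of 5 macrophage markers were lower, with 1 endothelial and 1 macrophage marker higher. Of all tested genes, 21.7% were called higher and 21.2% lower in KO under AC, and 24.6% and 24.9% under FAC. For FAC against AC, 6 of the 10 hepatocyte markers were called higher and 2 lower in WT, and 8 higher in KO. The shares of all genes were 8.70%, 8.55% and 15.0%. Summed hepatocyte markers ranged over 33527 to 35457 CPM in WT AC, 42036 to 43938 in WT FAC, 35425 to 37602 in KO AC and 44969 to 46535 in KO FAC. Summed endothelial markers ranged over 45.9 to 51.0, 47.1 to 53.8, 41.1 to 47.2 and 32.7 to 41.3 CPM in the same order, and stellate and fibroblast markers over 15.5 to 19.0, 13.0 to 13.4, 6.42 to 7.62 and 4.63 to 6.81 CPM. Summed macrophage markers ranged over 352 to 429, 655 to 706, 556 to 689 and 729 to 864 CPM, and cholangiocyte markers, of which 1 of 5 (Spp1) was called lower in KO under AC, over 405 to 424, 357 to 402, 113 to 122 and 169 to 184 CPM. The macrophage sum was thus higher in KO AC than in WT AC, although the median log2 fold change of its 5 tested markers was -2.75. It does not follow most of these markers. No listed marker was at 0 in all libraries. The part of these shifts in the genotype and FAC results below was not tested, and in bulk RNA fewer cells of a type and less RNA per cell cannot be told apart.

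Levels between genes were compared as FPKM, which accounts for gene length. The median of the 40 members was 21.9 FPKM in WT AC, 21.1 in WT FAC, 24.6 in KO AC and 20.5 in KO FAC. Plin2, the droplet coat protein, had the highest mean level in every group, from 305 ± 50.2 FPKM (SD, n = 3) in KO FAC to 426 ± 23.1 in WT FAC. Acadm, the medium-chain acyl-CoA dehydrogenase, and Acaa2, the mitochondrial 3-ketoacyl-CoA thiolase, came next, with Acadm ahead in WT (112 ± 2.26 against 81.2 ± 5.63 FPKM in WT AC) and Acaa2 ahead in KO by a margin within 2 SDs under AC (180.4 ± 13.4 against 162 ± 13.0 FPKM). Cd36 had the lowest level in WT, at 0.673 ± 0.318 FPKM in WT AC and 0.393 ± 0.0777 in WT FAC, and Acot4, a peroxisomal thioesterase, had the lowest in KO, at 1.81 ± 0.197 and 1.30 ± 0.278 FPKM. Cpt1a, which forms acylcarnitine at the outer mitochondrial membrane, stood near 10 FPKM in all groups, at 10.9 ± 0.186, 9.61 ± 1.64, 10.8 ± 1.21 and 8.70 ± 2.40 FPKM in WT AC, WT FAC, KO AC and KO FAC. Fabp1, among the most abundant proteins of the intact liver, ranked 26 of 40 in WT AC and 4 of 40 in KO FAC.

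**Figure D1:**
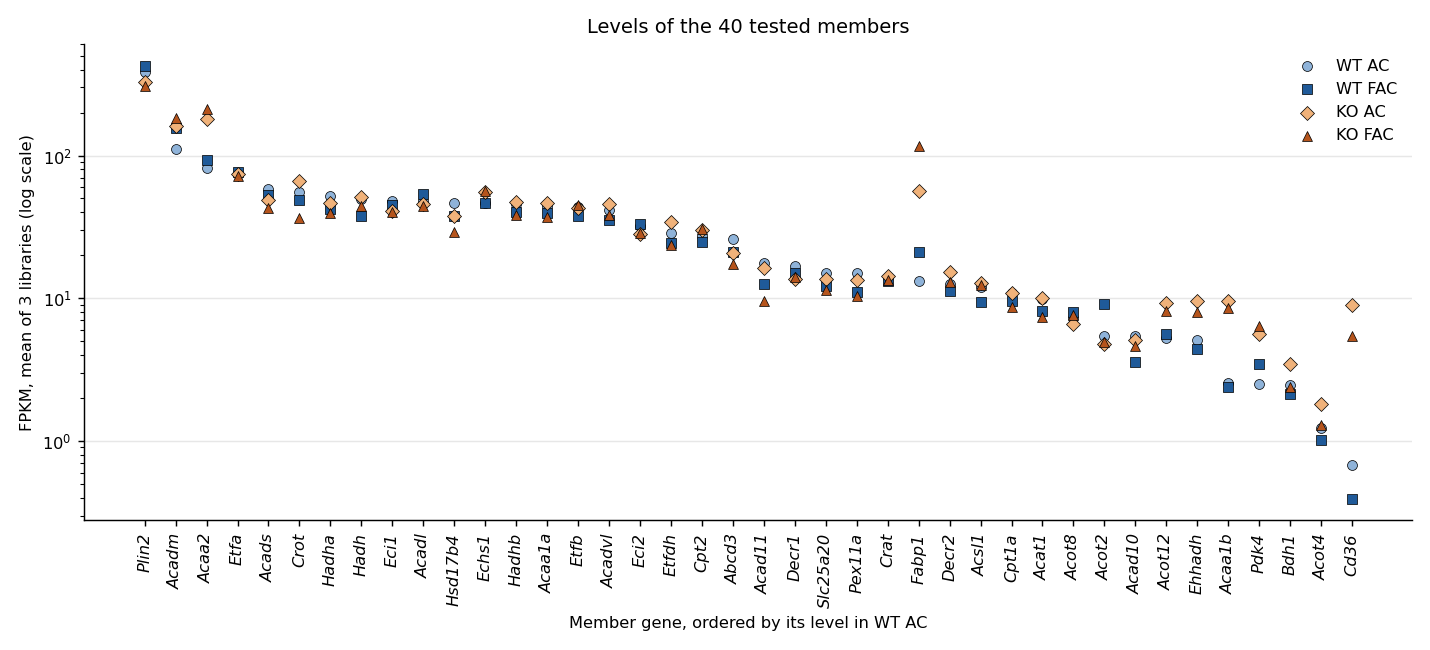
Mean FPKM (log scale, n = 3 libraries) of the 40 tested members, ordered by their level in WT AC, with 1 symbol per group. Most members lie close together in the 4 groups, while Cd36, Fabp1, Acaa1b, Acaa2, Ehhadh and Pdk4 are among those separated by genotype.

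KO was first compared with WT under AC, which asks how loss of Fxr changes these genes without FAC. Of the 40 tested members, 13 were higher and 1 was lower in KO at an adjusted p under 0.05 (edgeR quasi-likelihood test, Benjamini-Hochberg over all genes), while among all tested genes 21.7% were called higher and 21.2% lower. The share of members called higher was thus above that of all genes, and the share called lower was below it. The median log2 fold change was 0.12 over members and -0.0033 over all genes. Only 5 of the called members differed by at least 2-fold: Cd36, Fabp1, Acaa1b, Pdk4 and Acaa2. Libraries of the 2 groups did not overlap for 17 members, 16 higher and 1 lower in KO, where 26.5% of all tested genes were higher and 26.4% lower without overlap.

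**Figure D2:**
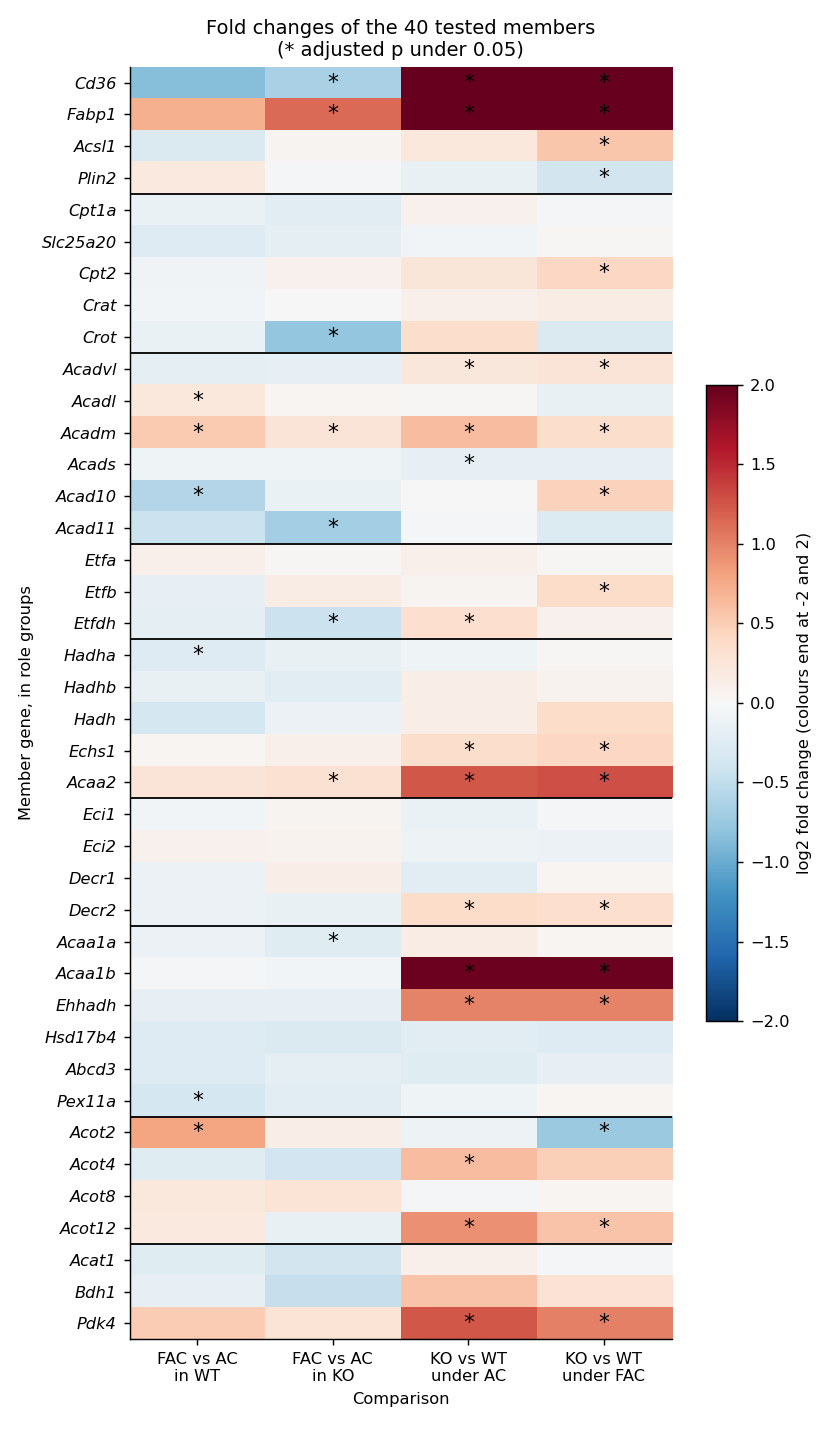
Log2 fold changes of the 40 tested members (rows, in role groups separated by lines) in 4 comparisons (columns); the colour scale ends at -2 and 2, and a star marks an adjusted p under 0.05. The KO columns hold 13 and 15 members called higher and 1 and 2 called lower, and the FAC columns 3 and 3 higher and 3 and 5 lower; fewer of all genes were called in the FAC comparisons too.

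Genes of uptake and binding differed most. Cd36, a fatty acid translocase of the plasma membrane (chromosome 5, 17781690 to 17888959), was at 1.47, 2.70 and 1.20 CPM in WT AC libraries and 30.3, 19.6 and 24.2 CPM in KO AC libraries. All KO values lay above all WT values, and Cd36 was 13.7-fold higher in KO (log2 fold change 3.78 ± 0.25, adjusted p = 7.97e-08). Fabp1, the liver fatty acid-binding protein (chromosome 6, 71199879 to 71205034), had 4.58, 5.41 and 3.39 CPM in WT AC and 25.0, 20.5 and 15.2 CPM in KO AC. It was 4.53-fold higher in KO, again without overlap (log2 fold change 2.18 ± 0.24, adjusted p = 2.05e-05). The activating enzyme Acsl1 (log2 fold change 0.22 ± 0.10, adjusted p = 0.0889) and Plin2 (log2 fold change -0.15 ± 0.10, adjusted p = 0.251) did not pass the test.

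None of the 5 genes of the carnitine shuttle was called under AC. Their log2 fold changes ran from -0.06 ± 0.14 for the carrier Slc25a20 to 0.35 ± 0.14 for Crot, the peroxisomal carnitine octanoyltransferase, with Cpt1a at 0.08 ± 0.16. Of the 6 acyl-CoA dehydrogenases, which carry out the first step of the cycle, Acadm and Acadvl were higher and Acads was lower. Acadm (chromosome 3, 153922353 to 153944643) had 200.2, 203 and 208 CPM in WT AC and 339, 319 and 283 CPM in KO AC, with no overlap and a 1.54-fold difference (log2 fold change 0.62 ± 0.08, adjusted p = 3.37e-05). The very-long-chain enzyme Acadvl rose by 0.23 ± 0.08 on the log2 scale (adjusted p = 0.0359) and the short-chain enzyme Acads fell to 0.891 of its WT level (adjusted p = 0.0494). Both calls were close to the threshold: Acadvl lost its call when KO AC 1, WT AC 1, WT FAC 4 or WT AC 3 was left out (adjusted p 0.0509 to 0.133) and in the limma fits, and Acads lost it without 9 of the 12 libraries, all but WT AC 1, WT FAC 5 and KO AC 1 (adjusted p 0.0551 to 0.162). Etfdh, which passes electrons from ETF to ubiquinone, was 1.27-fold higher (log2 fold change 0.34 ± 0.13, adjusted p = 0.0419), while the ETF subunits Etfa and Etfb were not called. The call of Etfdh was lost when KO AC 1, KO AC 3, KO FAC 5, WT AC 1, WT FAC 4 or WT AC 3 was left out (adjusted p 0.0519 to 0.172) and in the limma fits; without KO AC 1 its log2 fold change was 0.20.

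Among the mitochondrial enzymes of the later steps, Acaa2 and the hydratase Echs1 were higher, and the subunits Hadha and Hadhb of the trifunctional protein and Hadh were not called. Acaa2, which cleaves acetyl-CoA from medium-chain substrates, had 96.7, 115 and 103 CPM in WT AC against 271, 240.3 and 233 CPM in KO AC. All 3 KO libraries lay above all 3 WT libraries, and the difference was 2.36-fold (log2 fold change 1.24 ± 0.08, adjusted p = 7.70e-08). Echs1 differed less, by 1.27-fold (log2 fold change 0.35 ± 0.07, adjusted p = 0.00131). Of the 4 enzymes for unsaturated chains, the peroxisomal reductase Decr2 was 1.29-fold higher (log2 fold change 0.37 ± 0.11, adjusted p = 0.0127), a call lost without WT AC 3 (adjusted p = 0.0506) and in limma on FPKM or TPM values (0.0532 to 0.101, log2 fold change 0.22 on TPM). The isomerases Eci1 and Eci2 and the mitochondrial reductase Decr1 were not called.

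In the peroxisome, Acaa1b and Ehhadh were higher in KO and the other 4 tested members were not called. Acaa1b (chromosome 9, 119148043 to 119157093), a copy of the thiolase gene Acaa1a, had 3.71, 3.46 and 3.94 CPM in WT AC and 21.7, 10.4 and 11.4 CPM in KO AC, where KO AC 1 stood apart from the other 2 libraries. It was 3.91-fold higher (log2 fold change 1.97 ± 0.24, adjusted p = 3.64e-05), and remained called at a log2 fold change of 1.55 or more with any library left out. Acaa1a, at 63.0, 74.0 and 67.6 and 81.5, 73.0 and 72.4 CPM, did not pass the test (log2 fold change 0.15 ± 0.07, adjusted p = 0.114). The 2 copies are alike in sequence and their reads may be split between them. With their reads summed, a setting chosen after the data were seen, the log2 fold change was 0.33 ± 0.08 (adjusted p = 0.00735), so the size given for Acaa1b is uncertain. Ehhadh, the peroxisomal bifunctional enzyme (chromosome 16, 21761285 to 21787834), had 13.1, 14.6 and 14.1 CPM in WT AC and 31.7, 26.1 and 25.0 CPM in KO AC, with no overlap and a 1.98-fold difference (log2 fold change 0.99 ± 0.11, adjusted p = 9.03e-06). Hsd17b4, the other peroxisomal bifunctional enzyme, had a log2 fold change of -0.23 ± 0.19 and did not pass the test (adjusted p = 0.356).

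Thioesterases release free fatty acids or acetate from acyl-CoA. Acot12, which acts on acetyl-CoA in the cytosol, had 10.5, 11.4 and 9.08 CPM in WT AC and 25.5, 17.1 and 16.0 CPM in KO AC, without overlap, and was 1.89-fold higher (log2 fold change 0.92 ± 0.21, adjusted p = 0.00404). Acot4 was low, at 1.91, 3.46 and 2.30 and 4.42, 3.93 and 3.49 CPM, and its 1.54-fold difference (log2 fold change 0.62 ± 0.23, adjusted p = 0.0389) was lost when KO AC 1, KO AC 2, WT FAC 4, WT AC 1, WT FAC 5 or WT AC 3 was left out (adjusted p 0.0503 to 0.152) and when only these groups were fitted (0.0632). Acot2 and Acot8 were not called. Pdk4 phosphorylates and switches off pyruvate dehydrogenase, so that fat rather than pyruvate feeds the mitochondria. It had 8.62, 6.27 and 8.81 CPM in WT AC and 12.6, 25.7 and 18.03 CPM in KO AC, a wide spread in KO that did not reach the WT values, and was 2.38-fold higher (log2 fold change 1.25 ± 0.28, adjusted p = 0.00362). The ketogenic members Acat1 (log2 fold change 0.11 ± 0.18, adjusted p = 0.667) and Bdh1 (log2 fold change 0.58 ± 0.36, adjusted p = 0.216), which condense acetyl-CoA and reduce acetoacetate to 3-hydroxybutyrate, did not pass the test.

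These counts, and the number called lower among them, depended on the scaling and on single libraries. In each setting given here more members were called higher than lower, though the members' median fell to -0.031 on TPM values. On TPM values limma called 10 members higher and 5 lower, beside 1823 and 3838 of the 12275 tested genes. The median of all genes shifted to -0.11 there, and the members' median was 0.079 above it, against 0.12 with the counts. Without WT AC 3, 9 members were called, all higher, and without WT FAC 4, 10, all higher. Without KO AC 1, the library in which most members lay above the group's mean, 10 were called higher and 4 lower, with a median log2 fold change of 0.051. When KO FAC 6 or KO FAC 4 was left out as well, choices made after the data were seen, 10 and 7 or 11 and 7 were called higher and lower.

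**Figure D3:**
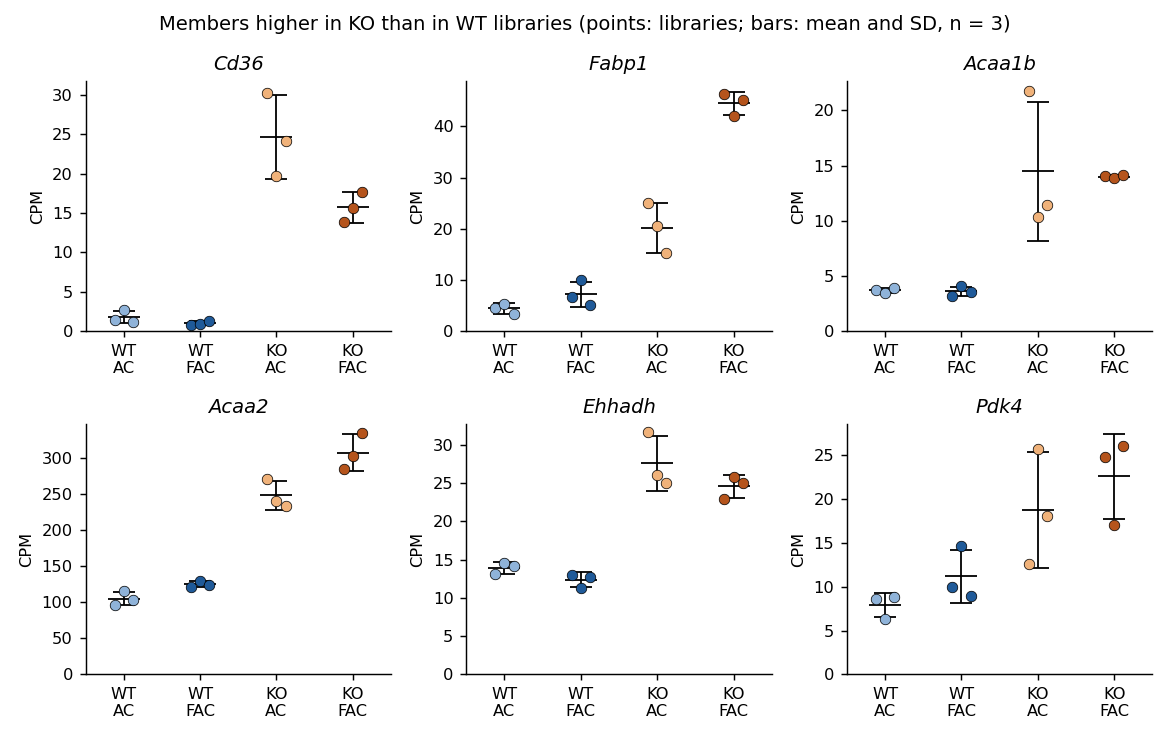
CPM of 6 members (1 panel each, linear axis from 0) in the 4 groups; points are libraries and bars give mean and SD (n = 3). In every panel all 3 KO AC libraries lie above all 3 WT AC libraries, and all 3 KO FAC libraries above all 3 WT FAC libraries.

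Under FAC, 15 of 40 members were higher and 2 were lower in KO than in WT, beside 24.6% of all tested genes called higher and 24.9% called lower. The median log2 fold change was 0.078 over members and -0.011 over all genes, and 5 called members again differed by at least 2-fold. Of the members called higher, 11 were also called higher under AC, 84.6% of that list and 73.3% of this list: Acaa1b, Acaa2, Acadm, Acadvl, Acot12, Cd36, Decr2, Echs1, Ehhadh, Fabp1 and Pdk4. The comparisons under AC and under FAC use different libraries. Over the 40 members their log2 fold changes had a Pearson correlation of 0.96 (Spearman 0.79), beside a Pearson correlation of 0.84 over all tested genes, given as a description. The sign was the same in 30 members (75.0%), beside 79.0% of all tested genes.

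Cd36 was at 0.79, 0.931 and 1.26 CPM in WT FAC and 13.8, 15.6 and 17.7 CPM in KO FAC libraries, a 15.7-fold difference without overlap (log2 fold change 3.98 ± 0.28, adjusted p = 1.15e-07). Fabp1 was at 6.77, 9.91 and 5.10 CPM in WT FAC and 46.3, 42.0 and 45.1 CPM in KO FAC, 6.10-fold higher in KO (log2 fold change 2.61 ± 0.23, adjusted p = 1.80e-06). In KO FAC the 3 Fabp1 values were close together and lay above those of all other libraries. Acsl1, not called under AC, had 36.2, 32.7 and 33.2 CPM in WT FAC and 44.8, 47.4 and 57.3 CPM in KO FAC (log2 fold change 0.55 ± 0.10, adjusted p = 4.48e-04). Plin2 was lower in KO, at 475, 541 and 639 CPM against 727, 672 and 742 CPM in WT FAC (log2 fold change -0.37 ± 0.10, adjusted p = 0.00696). Of the shuttle genes Cpt2, the inner-membrane transferase, was 1.33-fold higher (log2 fold change 0.41 ± 0.11, adjusted p = 0.00856), a call that limma on FPKM values did not make (adjusted p = 0.0671).

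Acadm remained higher in KO (279, 299 and 304 CPM in WT FAC, 339, 381 and 403 CPM in KO FAC), though by less than under AC, at 1.27-fold (log2 fold change 0.35 ± 0.08, adjusted p = 0.00216), a decrease of the genotype difference that was itself not called (log2 fold change -0.27 ± 0.11, adjusted p = 0.19). Acad10, a dehydrogenase family member with a hydrolase domain (chromosome 5, 121621026 to 121660603), had 12.4, 11.7 and 10.7 CPM in WT FAC and 15.7, 15.4 and 16.5 CPM in KO FAC and was 1.37-fold higher (log2 fold change 0.45 ± 0.09, adjusted p = 0.00124). Acadvl (log2 fold change 0.25 ± 0.08, adjusted p = 0.0188) and Etfb (log2 fold change 0.37 ± 0.13, adjusted p = 0.0267) were also called higher. Leaving out any of WT FAC 4, WT FAC 5, KO FAC 5 and KO FAC 6 ended both calls, with adjusted p from 0.0526 to 0.0862 for Acadvl and 0.0597 to 0.0969 for Etfb. Acaa2 stood at 121, 129 and 124 CPM in WT FAC and 284, 302 and 334 CPM in KO FAC, 2.46-fold higher (log2 fold change 1.30 ± 0.08, adjusted p = 3.43e-08), and Echs1 was 1.33-fold higher (log2 fold change 0.41 ± 0.07, adjusted p = 2.76e-04). Decr2 was again higher (log2 fold change 0.34 ± 0.11, adjusted p = 0.0175), a call lost without WT FAC 5, WT FAC 6 or KO FAC 6 (adjusted p 0.052 to 0.0923; log2 fold change 0.22 without KO FAC 6) and in the limma fits.

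Acaa1b was at 3.22, 4.05 and 3.56 CPM in WT FAC and at 14.0, 13.9 and 14.1 CPM in KO FAC, 3.87-fold higher (log2 fold change 1.95 ± 0.24, adjusted p = 2.95e-05); summed with Acaa1a the log2 fold change was 0.24 ± 0.08 (adjusted p = 0.0316). Ehhadh had 13.0, 11.3 and 12.8 CPM in WT FAC and 22.9, 25.8 and 25.0 CPM in KO FAC (log2 fold change 0.99 ± 0.11, adjusted p = 7.08e-06), the same size of difference as under AC. Acot12, at 10.1, 11.3 and 14.3 and 13.1, 18.2 and 21.7 CPM, overlapped between the groups (log2 fold change 0.57 ± 0.21, adjusted p = 0.0388) and lost its call without WT AC 1, WT FAC 4, WT FAC 5, KO FAC 5 or KO FAC 6 (adjusted p 0.0527 to 0.155). Acot4, at 2.20, 2.03 and 2.24 and 3.29, 2.29 and 3.43 CPM, was not called. Pdk4 was at 9.99, 14.6 and 8.95 CPM in WT FAC and 24.8, 17.0 and 26.0 CPM in KO FAC, 2.02-fold higher (log2 fold change 1.01 ± 0.27, adjusted p = 0.00802). Acot2, which releases fatty acids from long-chain acyl-CoA inside mitochondria, went the other way: 18.8, 18.1 and 18.2 CPM in WT FAC against 9.88, 10.9 and 12.1 CPM in KO FAC, 1.68-fold lower in KO without overlap (log2 fold change -0.75 ± 0.11, adjusted p = 7.22e-05). On TPM values, where the median of all genes was -0.17, limma called 9 members higher and 9 lower, and the members' median was 0.052 above that of all genes, against 0.090 with the counts.

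FAC was then compared with AC within WT cells, which asks how FAC acts where Fxr is present. Of the 40 members 3 were higher (Acot2, Acadm and Acadl) and 3 were lower (Acad10, Pex11a and Hadha), shares close to the background of 8.70% of all genes called higher and 8.55% called lower. No called member differed by 2-fold. The median log2 fold change of -0.13 over members, beside -0.0024 over all genes, went with negative values in 28 of 40 members. The libraries of the groups did not overlap for 19 members, 7 higher and 12 lower under FAC, where 21.6% of all tested genes were higher and 21.6% lower without overlap.

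Acot2 (chromosome 12, 83987861 to 83993877) had the largest difference of a called member. Its CPM of 11.5, 11.1 and 9.47 in WT AC and 18.8, 18.1 and 18.2 in WT FAC did not overlap, and it was 1.72-fold higher under FAC (log2 fold change 0.78 ± 0.11, adjusted p = 2.62e-04). The neighbouring copy Acot1 (chromosome 12, 84009502 to 84017670) can share its reads; with both summed the log2 fold change was 0.75 ± 0.11 (adjusted p = 4.38e-04). Acadm, with the WT values given above, was 1.44-fold higher under FAC, all 3 WT FAC libraries lying above all 3 WT AC libraries (log2 fold change 0.53 ± 0.08, adjusted p = 5.16e-04). Acadl, the long-chain dehydrogenase, had 76.0, 88.0 and 82.6 CPM in WT AC and 93.5, 95.8 and 95.1 CPM in WT FAC (log2 fold change 0.21 ± 0.06, adjusted p = 0.0348). Acad10 was at 16.2, 18.01 and 18.2 CPM in WT AC and was 1.51-fold lower in WT FAC, without overlap (log2 fold change -0.59 ± 0.09, adjusted p = 7.41e-04).

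Pex11a, which promotes division of peroxisomes, had 23.0, 22.4 and 22.9 CPM in WT AC and 16.3, 17.8 and 19.2 CPM in WT FAC (log2 fold change -0.36 ± 0.10, adjusted p = 0.0265). Hadha, the subunit of the trifunctional protein that hydrates and dehydrogenates long chains, had 181, 185 and 186 and 154, 149.9 and 158 CPM (log2 fold change -0.25 ± 0.07, adjusted p = 0.0306). Hadhb, its partner, at 81.1, 84.9 and 84.6 and 78.1, 68.6 and 78.6 CPM, was not called (log2 fold change -0.15 ± 0.17, adjusted p = 0.587). Both Pex11a and Hadha were below their WT AC values in all WT FAC libraries. Their calls and that of Acadl were sensitive to single libraries: Hadha lost it without any of the 6 WT libraries (adjusted p 0.0612 to 0.111), Pex11a without any of them except WT FAC 6 (0.0547 to 0.115), and Acadl without any of them except WT AC 2, and without KO AC 2 (0.0508 to 0.141). Without WT AC 1, WT AC 3, WT FAC 4 or WT FAC 5, 3 members were called. On TPM values limma called 2 members higher and 9 lower, beside 578 and 1951 of the 12275 tested genes. The median of all genes was then -0.10, and the members' median relative to it was -0.14, against -0.12 with the counts.

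Members with large but uncalled values in WT were Cd36 (log2 fold change -0.85 ± 0.35, adjusted p = 0.113) and Fabp1 (log2 fold change 0.70 ± 0.26, adjusted p = 0.0789). DESeq2 called both (adjusted p = 0.0450 and 0.0229). Both have low counts in WT cells, and their WT AC and WT FAC libraries overlapped for Cd36 (1.20 to 2.70 and 0.79 to 1.26 CPM) and for Fabp1 (3.39 to 5.41 and 5.10 to 9.91 CPM). Pdk4 had a log2 fold change of 0.50 ± 0.28 (adjusted p = 0.251), Bdh1 of -0.17 ± 0.37 (adjusted p = 0.805) and Acat1 of -0.24 ± 0.19 (adjusted p = 0.416). None of the 5 shuttle genes was called, and all 5 values were negative, between -0.26 ± 0.14 for Slc25a20 and -0.05 ± 0.08 for Crat, the carnitine acetyltransferase.

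**Figure D4:**
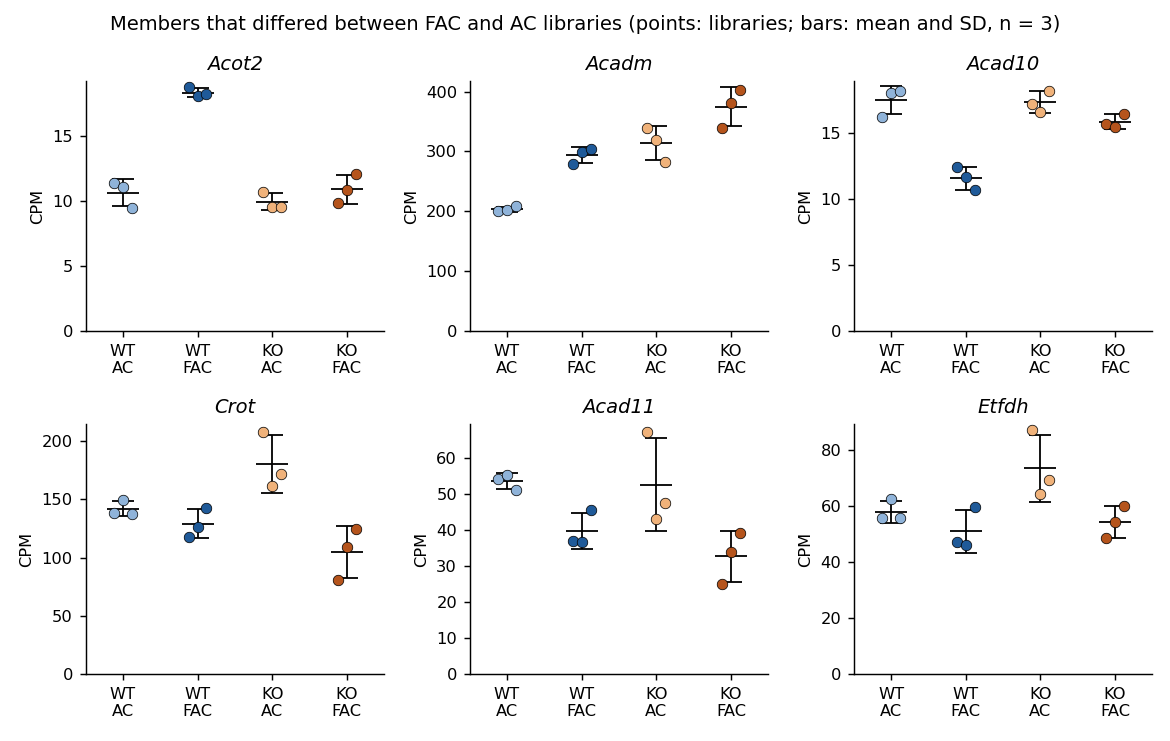
CPM of 6 members (1 panel each, linear axis from 0) in the 4 groups; points are libraries and bars give mean and SD (n = 3). Acot2 is high in all 3 WT FAC libraries and in no other group, while Crot, Acad11 and Etfdh are lower in KO FAC than in KO AC.

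In KO cells the same comparison asks how FAC acts without Fxr. Of the 40 members 3 were higher under FAC (Fabp1, Acaa2 and Acadm) and 5 were lower (Crot, Acad11, Cd36, Etfdh and Acaa1a), against 15.0% of all genes called higher and 14.6% called lower. The members' median log2 fold change was -0.12, beside -0.0020 over all genes. Fabp1 was the only called member with a 2-fold difference. In the main fit Acadm was the only member called higher in both genotypes, and none was called lower in both. DESeq2 also called Fabp1 and Acaa2 higher in both (adjusted p = 0.0229 and 0.0403 in WT) and Cd36 lower in both (0.0450). The FAC comparisons in WT and KO use different libraries, and over the 40 members their log2 fold changes had a Pearson correlation of 0.72 (Spearman 0.70), with the same sign in 32 members (80.0%). Over all tested genes the Pearson correlation was 0.50, with the same sign in 68.6%.

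Fabp1 was 2.20-fold higher in KO FAC than in KO AC, and all 3 values under FAC (42.0 CPM or more) were above all 3 under AC (25.0 CPM or less; log2 fold change 1.14 ± 0.21, adjusted p = 0.00179). Cd36 was 1.57-fold lower under FAC, its KO values given above not overlapping (log2 fold change -0.65 ± 0.20, adjusted p = 0.0241), a call that ended when KO FAC 4, KO FAC 5, KO AC 1 or KO AC 3 was left out (adjusted p 0.0643 to 0.0746). Crot (chromosome 5, 8966033 to 8997146), which prepares shortened peroxisomal chains for export, had 208, 161 and 172 CPM in KO AC and 81.0, 109 and 124 CPM in KO FAC. It was 1.72-fold lower without overlap (log2 fold change -0.78 ± 0.14, adjusted p = 0.00143). In WT the Crot values, 139, 149 and 138 under AC and 118, 126 and 142 CPM under FAC, overlapped. The other shuttle genes were not called.

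Acad11, a dehydrogenase of very long chains (chromosome 9, 104063724 to 104127656), had 67.4, 43.2 and 47.6 CPM in KO AC and 25.2, 33.9 and 39.4 CPM in KO FAC, 1.61-fold lower (log2 fold change -0.68 ± 0.18, adjusted p = 0.0125), a call not made when only the KO groups were fitted (adjusted p = 0.0591). Its WT values of 54.4, 55.4 and 51.1 and 37.0, 36.9 and 45.8 CPM also did not overlap, though the difference was not called (log2 fold change -0.43 ± 0.17, adjusted p = 0.113). A fit of only the WT groups called it (adjusted p = 0.00333). Etfdh (chromosome 3, 79603788 to 79628767) had 87.1, 64.3 and 69.2 CPM in KO AC and 48.7, 54.4 and 60.1 CPM in KO FAC (log2 fold change -0.43 ± 0.13, adjusted p = 0.0208), and lost its call without KO AC 1, KO FAC 4 or KO FAC 5 (adjusted p 0.0586 to 0.0726). Acaa2 was 1.24-fold higher (log2 fold change 0.31 ± 0.08, adjusted p = 0.0128), lost without KO AC 2 or KO AC 3 (adjusted p 0.0502 to 0.0623) and in the limma fits. Acadm was 1.19-fold higher with overlapping libraries (log2 fold change 0.25 ± 0.08, adjusted p = 0.0246), a call that ended when KO FAC 5, KO FAC 6, KO AC 2 or KO AC 3 was left out (adjusted p 0.0541 to 0.116). Acaa1a, at 81.5, 73.0 and 72.4 and 65.7, 63.4 and 63.2 CPM, was 1.18-fold lower (log2 fold change -0.24 ± 0.07, adjusted p = 0.0253). It lost its call without KO AC 1, KO FAC 5 or KO FAC 6 (adjusted p 0.0648 to 0.0756), and with the reads of Acaa1b added it was not called (log2 fold change -0.21 ± 0.08, adjusted p = 0.0821).

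The 7 peroxisomal members gave no call higher under FAC in either genotype, and all 6 tested ones had negative values in both, with a median log2 fold change of -0.21 in WT and -0.20 in KO. Without KO AC 1, Acaa1b turned in KO and was called higher (log2 fold change 0.36, adjusted p = 0.0367). Pdk4 (log2 fold change 0.27 ± 0.26, adjusted p = 0.466), Bdh1 (log2 fold change -0.45 ± 0.36, adjusted p = 0.369) and Acat1 (log2 fold change -0.36 ± 0.19, adjusted p = 0.163) were not called in KO. The direction of the KO counts depended on single libraries. Without KO AC 1, 6 members were called higher and 2 lower under FAC, with a median log2 fold change of 0.017. With KO FAC 4 left out as well, 8 were called higher and 2 lower, with a median of 0.11. Leaving out KO FAC 4 alone gave 3 higher and 3 lower (median -0.016), and KO FAC 5 alone 2 and 2. Lower calls stayed more numerous without KO AC 2 (1 higher and 5 lower), KO AC 3 (1 and 4) or KO FAC 6 (2 and 6). On TPM values limma called 1 member higher and 15 lower, beside 862 and 3808 of the 12275 tested genes. The median of all genes was then -0.15, and the members' median relative to it was -0.11, against -0.12 with the counts.

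The difference of the FAC effects, KO minus WT, asks whether a gene's response to FAC depends on Fxr. It was called for 1 of 40 members, Acot2, which was lower, beside 1.87% of all genes called higher and 1.28% called lower. Acot2 rose under FAC in WT, where the 3 FAC libraries stood between 18.1 and 18.8 CPM, whereas KO AC and KO FAC libraries overlapped (10.7, 9.58 and 9.60 and 9.88, 10.9 and 12.1 CPM; log2 fold change 0.14 ± 0.11, adjusted p = 0.374). The difference was -0.65 ± 0.15 on the log2 scale (edgeR quasi-likelihood test, adjusted p = 0.0385). It passed narrowly: without any of 10 libraries, all but WT AC 1 and KO FAC 6, the adjusted p was 0.0504 to 0.111, with the difference between -0.73 and -0.57 throughout. With the reads of Acot1 added it was -0.62 ± 0.16 (adjusted p = 0.0469). Acad10 (log2 fold change 0.46 ± 0.13, adjusted p = 0.0682) and Crot (log2 fold change -0.64 ± 0.19, adjusted p = 0.0966) had values of like size and did not pass. DESeq2 called the difference for Crot too (adjusted p = 0.0386). The edgeR fit of genes at 5 FPKM or more in 3 libraries called it for Acad10 (adjusted p = 0.0411). Among the 40 members 5 had an unadjusted p under 0.05, as had 19.1% of all tested genes. For Cd36 the difference was 0.20 ± 0.40 and for Fabp1 0.43 ± 0.33, neither called (adjusted p = 0.833 and 0.517).

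**Figure D5:**
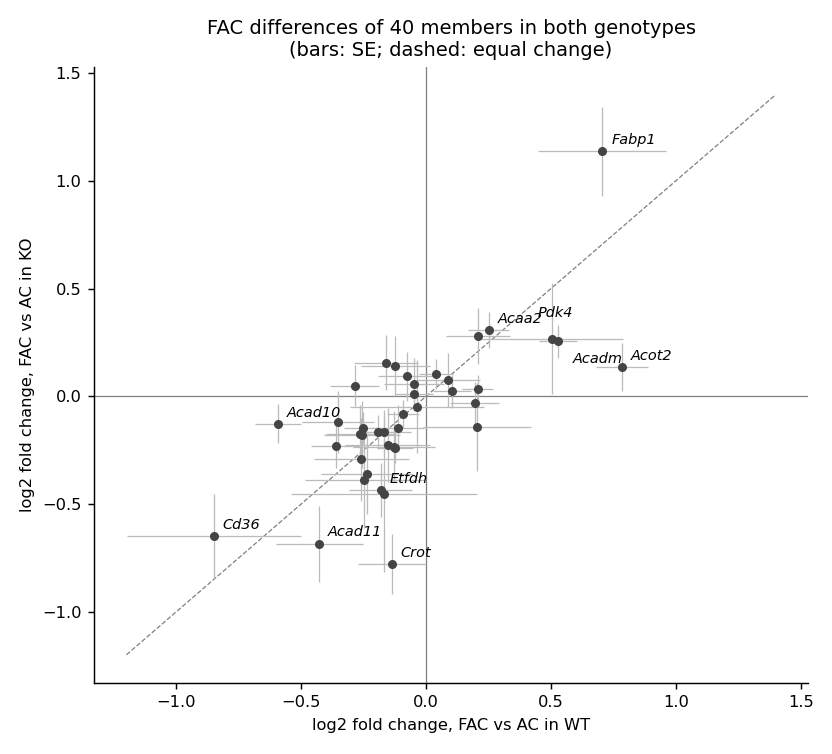
Log2 fold changes of the 40 tested members for FAC against AC in WT (horizontal) and in KO (vertical), with bars for SE; the dashed line marks equal changes. Most points lie near the line; Acot2, Crot and Acad10 lie off it, and the difference was called for Acot2.

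In the main fit, 26 of the 40 tested members were called in at least 1 comparison. The other 14 were called in none: Abcd3, Acat1, Acot8, Bdh1, Cpt1a, Crat, Decr1, Eci1, Eci2, Etfa, Hadh, Hadhb, Hsd17b4 and Slc25a20. Not all of them stayed uncalled in the alternative fits. Hadh was called higher in KO under FAC by DESeq2 (adjusted p = 0.0316) and with the replicate number as a block (0.0343). Abcd3, Acat1, Cpt1a, Decr1, Eci1, Eci2, Hadhb, Hsd17b4 and Slc25a20 were also called in at least 1 alternative. The uncalled group includes the carnitine step that limits entry into mitochondria (Cpt1a, Slc25a20) and both ketogenic members. A missed threshold does not show that they were equal: their log2 fold changes in KO under AC reached 0.58 ± 0.36 for Bdh1.

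Genes of the same pathways outside the 43 were described by lists. Of the genes of ketone body use and transport, Bdh2, a cytosolic hydroxybutyrate dehydrogenase family member, had a log2 fold change of 1.18 ± 0.12 in KO under AC. Oxct1, which uses ketone bodies, had 1.17 ± 0.20 and the transporter Slc16a6 1.10 ± 0.22, and all 3 were called higher. Under FAC all 3 were again called higher in KO, with Oxct1 at a log2 fold change of 1.96 ± 0.18, Slc16a6 at 0.78 ± 0.22 and Bdh2 at 0.72 ± 0.12. FAC gave a call higher for Bdh2 in WT (log2 fold change 0.81 ± 0.13), and for Oxct1 (1.25 ± 0.17) and Bdh2 (0.35 ± 0.11) in KO.

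Among all tested genes, 21.7% were called higher and 21.2% lower in KO under AC, and 24.6% and 24.9% under FAC. Of 32 other enzymes of fatty acid oxidation, 14 were called higher and 3 lower in KO under AC, and 14 higher and 2 lower under FAC, with median log2 fold changes of 0.28 and 0.33. The largest called were the thioesterase Acot5 (2.49 ± 0.33), the acyl-CoA synthetase Slc27a5 (1.96 ± 0.08) and the thioesterase Acot11 (1.85 ± 0.32) under AC, and Acot11 (2.24 ± 0.32), Slc27a5 (1.72 ± 0.07) and the phytanoyl-CoA hydroxylase Phyh (1.70 ± 0.06) under FAC. The FAC effect was called higher for 3 and lower for 1 in WT (Slc27a5, 0.69 ± 0.07; Slc27a1, 0.64 ± 0.14; Hacl1, -0.47 ± 0.09) and for 7 and 4 in KO (Hacl1, -0.63 ± 0.09; Acot7, 0.60 ± 0.08; Acsl5, 0.58 ± 0.08). The shares of all tested genes were 8.70% higher and 8.55% lower in WT, and 15.0% and 14.6% in KO. Of 16 other PPARα targets, 10 were higher and 2 lower in KO under AC and 11 and 1 under FAC. Cyp4a14 (1.88 ± 0.12 and 2.33 ± 0.12), Creb3l3 (1.93 ± 0.23 under AC) and Cyp4a10 (1.96 ± 0.09 under FAC) were higher, whereas Cyp4a12b was lower (-5.37 ± 0.34 and -4.47 ± 0.29). The difference of FAC effects was called for Phyh (0.64 ± 0.08), Acot7 (0.52 ± 0.12), Cyp4a10 (0.84 ± 0.12) and Vnn1 (-0.70 ± 0.15).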

How the data were processed

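The members and the gene lists were chosen with earlier results of these data known. Libraries were prepared for BGISEQ-500 sequencing from Trizol-extracted total RNA, per the labels' protocols, and quantified with RSEM on mm10 and GRCm38.p6, per the submitters' processing notes; for the aligner, annotation, strand setting and versions, the sources used here say nothing. The authors deposited estimated counts (RSEM expected counts, not normalized), FPKM values and TPM values for each gene and library. Symbols and GRCm38.p6 positions came from RefSeq by gene identifier, which matched 16629 of 16728 genes; the table held 2 rows with the symbol Plin2, and the identifier was used to choose the row.

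Estimated counts were rounded, scaled by TMM and fitted with edgeR 4.0.16 (R 4.3.3; robust quasi-likelihood model, 4 groups, 8 residual degrees of freedom) after filterByExpr with a minimum count of 10, which kept 12275 genes. The fit was run on simulated counts for FAC against AC in WT alone, with the same spread for every gene. Changes were placed only in genes with enough reads, so the run does not address low counts or the difference of FAC effects. P-values were adjusted by Benjamini-Hochberg across the 12275 genes, with calls made under 0.05. The SE is the absolute log2 fold change divided by the square root of F. CPM are TMM-scaled. The biological coefficient of variation was 10.8%. Library values were given for the 8 called members with the largest fold change in each comparison and for any member called for the difference; of each list, up to 3 called genes with the largest fold change were named per comparison. Values of other members and of the named markers were added after they were seen. Some genes of the lists, and the counts that hold them, are not reported here. Alternatives were DESeq2 1.42.0, median-of-ratios scaling, limma 3.58.1 on log2 FPKM (pseudocount 1 or 0.1) and log2 TPM (pseudocount 1), other filters, the compared groups alone, the replicate number as a block, and each library left out. Same-numbered libraries were not treated as pairs in the main fit. Summing the reads of near-identical copies and leaving out 2 KO libraries were added after the data were seen.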

Additional observations from a re-analysis of the deposited data

Results flagged for a closer look

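In the main fit, Acot2 was the member whose response to FAC differed between genotypes by a test of the difference itself. The FAC effect in KO minus that in WT was -0.65 on the log2 scale (edgeR quasi-likelihood test, adjusted p = 0.0385). FAC raised Acot2 in WT by 0.78 ± 0.11, and all 3 WT FAC libraries lay above the other 9. The call of the difference was lost without any of 10 of the 12 libraries (adjusted p 0.0504 to 0.111) and with the replicate number as a block (0.0884).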

How the results depend on the processing

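Of the calls of members, 3 of 6 for FAC in WT (Acadm, Acad10 and Acot2), 2 of 8 for FAC in KO (Fabp1 and Crot), 9 of 14 for KO under AC (Cd36, Fabp1, Acadm, Echs1, Acaa2, Acaa1b, Ehhadh, Acot12 and Pdk4) and 11 of 17 for KO under FAC (Cd36, Fabp1, Acsl1, Plin2, Acad10, Echs1, Acaa2, Acaa1b, Ehhadh, Acot2 and Pdk4) held under every alternative run. The call of the difference for Acot2 did not. Leaving out each library in turn, members called ranged from 3 to 9 for FAC in WT, 4 to 8 for FAC in KO, 9 to 15 for KO under AC and 0 to 2 for the difference. Genes called ranged from 1250 to 2503 of 2117 for FAC in WT, 2371 to 4095 for 3633 in KO and 95 to 643 for 387 of the difference. A fit of only the compared groups called 14 members and 3345 genes for FAC in WT and 5 and 2199 for FAC in KO. Limma on TPM called 11 members for FAC in WT and 16 for FAC in KO, beside 2529 and 4670 of the 12275 tested genes. For the difference, limma on log2(FPKM + 1) called 584 genes. DESeq2 called 678 genes and 2 members (Acot2 and Crot), and the stricter FPKM filter 2 members (Acot2 and Acad10). Without KO AC 1 and KO FAC 6, chosen after the data were seen, 11 members were called for FAC in WT and 2 for the difference, and 10 higher and 7 lower for KO under AC and 4 and 4 for FAC in KO; without KO AC 1 and KO FAC 4, 12 and 8, with 1918 genes for the difference, and 11 and 7 for KO under AC and 8 and 2 for FAC in KO (13 and 1, and 3 and 5, with all libraries). Same-numbered WT and KO libraries of a treatment had weakly correlated deviations from their group means. Correlations ran from -0.14 to 0.21 in 6 pairs, with 2 of 6 above 0.1, beside -0.26 to 0.22 in differently numbered pairs. So few pairs cannot show whether same-numbered libraries were prepared together, and AC was not compared with FAC libraries in this way. The replicate block called 84 genes and 0 members for the difference. Signs turned with a call for Acadl under FAC in KO (-0.15) and Acaa1a in KO under FAC (-0.16) on TPM. They did so for Acaa1b under FAC in KO without KO AC 1 (0.36) and without KO AC 1 and KO FAC 4 (0.38). Over all libraries left out, Acaa1b there ran from -0.25 to 0.36. Counted over members and alternatives, signs turned without a call 11 times for FAC in WT and 57 for FAC in KO. The numbers were 41 for KO under AC, 59 for KO under FAC and 89 for the difference. In that order, calls were gained with the sign kept 40, 26, 30, 33 and 12 times and lost 21, 29, 50, 33 and 11 times. The cause of these changes was not tested. Depth limits Cd36 in WT (22 to 50 reads in WT AC) and leaves Abcd2, Acot1 and Acot3 untested.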

Other observations

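Other gene lists around the pathway were described by counts. Beside them stand the shares of all tested genes called in KO: 21.7% higher and 21.2% lower under AC, and 24.6% and 24.9% under FAC. Of 15 genes of lipolysis and lipid droplets, 11 were called higher and none lower in KO under AC and 9 under FAC. The largest log2 fold changes were those of the droplet proteins Fitm1 (3.45 ± 0.35 under AC and 2.89 ± 0.30 under FAC), Cidea (2.41 ± 0.18 and 2.17 ± 0.17), Cidec (2.03 ± 0.52 under AC) and Plin4 (1.84 ± 0.36 under FAC), whereas the member Plin2 was lower under FAC. FAC raised Cidea (0.71 ± 0.18 in WT and 0.47 ± 0.16 in KO) and the lipase co-activator Abhd5 (0.39 ± 0.06 and 0.42 ± 0.06) in both genotypes, Plin3 in WT (0.41 ± 0.07), and lowered the lipase Pnpla2 in KO (-0.25 ± 0.08). Of the PPARα targets, FAC changed Creb3l3 (0.80 ± 0.22), Vnn1 (-0.76 ± 0.11) and Cyp4a12a (0.37 ± 0.10) in WT, and Vnn1 (-1.45 ± 0.11), Cyp4a31 (0.99 ± 0.35) and Cyp4a10 (0.86 ± 0.08) in KO.

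Of 24 regulators, 5 were higher and 2 lower in KO under AC, where 21.7% of all tested genes were higher and 21.2% lower. The share of regulators called higher was thus near that of all genes, and the share called lower was below it. The largest differences were those of Acacb (2.18 ± 0.15), which makes the CPT1 inhibitor malonyl-CoA, Rxrg (1.35 ± 0.38) and Pparg (1.05 ± 0.20). Under FAC 8 regulators were higher and 2 lower, where 24.6% of all tested genes were higher and 24.9% lower. Rxrg (1.91 ± 0.37), Acacb (1.55 ± 0.15) and Ppargc1b (1.24 ± 0.40) differed most. FAC lowered 3 regulators in WT (Acaca, -0.56 ± 0.10; Ncoa1, -0.44 ± 0.14; Ncor1, -0.44 ± 0.12) and 5 in KO, led by the AMPK subunit Prkaa2 (-0.62 ± 0.11), Acaca (-0.47 ± 0.10) and Ncor1 (-0.44 ± 0.12). Among all tested genes, 8.55% were called lower under FAC in WT and 14.6% in KO. Of 11 genes of the pyruvate dehydrogenase complex, the kinase Pdk2 was higher in KO (1.04 ± 0.16 under AC and 1.81 ± 0.17 under FAC), as the member Pdk4 was. Pdhb was also higher under AC (0.51 ± 0.07), Pdk3 under FAC (0.88 ± 0.16), and the phosphatase Pdp1 was lower (-0.51 ± 0.15 and -0.89 ± 0.15). FAC lowered Pdk2 (-0.92 ± 0.17) and Pdk1 (-0.48 ± 0.13) in WT and raised Pdhb (0.35 ± 0.07 in WT and 0.24 ± 0.07 in KO). Of 20 peroxisome genes, 4 were higher and 2 lower in KO under AC (Pex16, 0.53 ± 0.11; Pex5, 0.44 ± 0.07; Slc25a17, -0.39 ± 0.10) and 4 and 4 under FAC (Pxmp2, 1.47 ± 0.25; Pex16, 0.77 ± 0.11; Slc25a17, -0.70 ± 0.10). None of these shares of peroxisome genes exceeded that of all tested genes. FAC lowered Pex26 in WT (-0.46 ± 0.10) and KO (-0.82 ± 0.10), and in KO also Slc25a17 (-0.38 ± 0.10), with Pex16 higher (0.33 ± 0.11).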
